A study of Mus musculus with 4 samples.

Results

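The levels of 10 trophoblast genes were followed in fetal liver RNA from litters of control diet (CD)-fed and high-fat diet (HFD)-fed dams. They were Tpbpa, Tpbpb and Ascl2 of the junctional zone, Gcm1, Syna and Synb of the labyrinth, and Hand1, Plac1, Rhox6 and Rhox9, which mark other trophoblast. The 10 genes were chosen from measured values of these same arrays, namely with the HFD minus CD differences known, so those differences are given as a description with no test. They are 10 of the 22911 genes that a probe of the array could be matched to, and all 10 had a probe, 13 probes in total.

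The arrays held RNA from whole fetal liver taken at mid-gestation, 2 arrays for each diet. All dams were C57BL/6J mice, and the diets were given only during gestation. The CD held 4.3% of energy as fat, 19.2% as protein and 67.3% as carbohydrate, and the HFD held 60% as fat, 20% as protein and 20% as carbohydrate. The fetuses carried no transgene or deletion named in the labels, and the number of fetuses and dams behind each array is not given in the sources used here. The series describes the 2 arrays of a diet as biological replicates, and every SD here rests on n = 2 arrays per group. Every SE is from the limma fit, which draws the variance of a probe toward that of all probes tested. For a gene whose replicates lie far apart, this SE is smaller than its own arrays would give. On these single-color Agilent arrays a labeled RNA copy binds to probes of known sequence, and the fluorescence intensity of a spot follows the amount of that RNA. A level is the log2 intensity with the 75th percentile of its array subtracted. Since probes differ in how brightly they bind, levels of different probes are not compared. Sums of levels over a list, carried by its brightest probes, are read only between arrays and not between lists.

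The mouse placenta has a fetal part built by trophoblast, in which the labyrinth exchanges nutrients between the maternal and fetal blood and the junctional zone, made of spongiotrophoblast and glycogen cells, lies between the labyrinth and the maternal decidua. Spongiotrophoblast secretes hormones of the prolactin and pregnancy-specific glycoprotein families, and Tpbpa is its classical marker. Labyrinth formation starts where Gcm1 is expressed, and its syncytial layers arise by cell fusion driven by the syncytins. Liver cells belong to neither layer.

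Several values of the whole series bear on these genes. The share of spots well above background was 65.4 to 70.0% and the median intensity 70.2 to 120.5, lowest in both cases on CD replicate 2, and no spot was saturated. The liver label was borne out by its markers, since 7 of 7 hepatocyte and 7 of 7 erythroid genes were well above background on every array, with median HFD minus CD differences of -0.01 and -0.03 on the log2 scale. The labels give the sex as female for all 4 samples without stating whether the dam or the fetus is meant. On CD replicate 1 and HFD replicate 1, the Y-linked transcripts Ddx3y, Eif2s3y, Kdm5d and Uty were well above background and Xist was not. On CD replicate 2 and HFD replicate 2, Xist had intensities of 448 and 543 and none of the 4 Y-linked transcripts was well above background. The arrays thus fell apart by replicate number in this respect, with 1 array of each kind per diet, and the members are given within these pairs as well.

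Tpbpa and Tpbpb encode small secreted proteins of the spongiotrophoblast and lie near each other on chromosome 13. The order of genes in RefSeq (GRCm38.p6) is Ctla2b, Tpbpb, Ctla2a, Tpbpa, then 2 noncoding genes, then the placental cathepsins Ctsj, Ctsq, Ctsr, Cts6, Cts8 and Cts7. The 250 bases upstream of their starts are shown because the transcripts of these genes moved together on the arrays. The RefSeq table held upstream sequence for 6 of the 10 members. The array itself was designed on another build, so no coordinates of its probes are given. Upstream sequence lies on the minus strand of GRCm38.p6 for each of the following genes and reads 5′ to 3′ toward the start, at chr13:60941937-60942186 for Tpbpa and chr13:60904848-60905097 for Tpbpb. Capitals mark the 10 bases of each that differ from, or have no partner in, the other.
Tpbpa: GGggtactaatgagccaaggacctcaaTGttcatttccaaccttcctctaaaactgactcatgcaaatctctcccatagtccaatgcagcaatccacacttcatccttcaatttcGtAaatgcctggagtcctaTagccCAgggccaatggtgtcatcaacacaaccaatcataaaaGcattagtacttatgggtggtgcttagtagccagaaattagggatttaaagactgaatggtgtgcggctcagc
Tpbpb: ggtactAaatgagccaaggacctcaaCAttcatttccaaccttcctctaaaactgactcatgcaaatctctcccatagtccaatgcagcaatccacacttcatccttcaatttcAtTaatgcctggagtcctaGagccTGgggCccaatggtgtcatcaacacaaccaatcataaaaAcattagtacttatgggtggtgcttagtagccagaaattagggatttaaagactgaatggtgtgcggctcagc
These sequences were identical in 240 of 252 aligned columns, or 95.2%. For all other pairs of member promoters the identity was 42.1 to 48.9%. Ascl2, the third junctional zone member, encodes a basic helix-loop-helix transcription factor required for spongiotrophoblast. Its upstream sequence at chr7:142969265-142969514 is given for contrast, with capitals on its 2 E-boxes (CANNTG), the element that factors of this class bind.
Ascl2: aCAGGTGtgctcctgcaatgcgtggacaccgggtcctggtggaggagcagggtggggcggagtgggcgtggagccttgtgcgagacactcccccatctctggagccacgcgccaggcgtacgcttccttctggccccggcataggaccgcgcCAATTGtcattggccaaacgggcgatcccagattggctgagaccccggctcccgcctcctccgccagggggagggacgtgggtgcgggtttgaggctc
The Ascl2 sequence matched that of Tpbpa in 46% of aligned columns, and its GC content was 67.6%, against 44.4% for Tpbpa, 43.6% for Tpbpb and a median of 52.4% over all 32851 promoters. The search covered 4 motifs on both strands, an E-box (CANNTG), a GCM element (ATGCGGGT), an AP-2 element (GCCNNNGGC) and a TATA box (TATAAA). Tpbpa and Tpbpb each held 1 AP-2 match, 114 and 115 bases before the start, and no match to the other 3 motifs. The AP-2 letters occurred in 13.7% of all promoters, the E-box in 66.2%, the TATA box in 12.4% and the GCM letters in 0.207%. Gcm1 and the second of 2 Plac1 promoters each held 2 E-boxes, and Syna held 1 AP-2 match. These matches describe letters in the window and not binding.

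Tpbpa and Tpbpb were the members with by far the widest range between arrays. The intensity of Tpbpa was 8628 and 19667 for CD and 1942 and 451 for HFD, in replicate order. That of Tpbpb was 2535 and 4825 for CD and 532 and 109 for HFD. For both genes the highest array was CD replicate 2 and the lowest HFD replicate 2, the groups did not overlap, and every spot was well above background. The level of Tpbpa was 3.91 ± 1.27 (SD, n = 2) for CD and 0.00 ± 1.42 (SD, n = 2) for HFD. The HFD minus CD difference was -3.91 ± 0.92 (SE from the limma fit), or 15-fold lower. The difference for Tpbpb was -3.97 ± 0.91 (SE), or 15.7-fold lower. The replicate SD of Tpbpa and Tpbpb was 1.35 and 1.34, so the limma SE understates the spread of this pair. Over all 18340 genes tested the median difference was 0.04, and 23 genes (0.125%) were lower by 3 or more on the log2 scale. In bulk tissue, fewer cells of a type and less RNA per cell cannot be told apart.

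**Figure D1:**
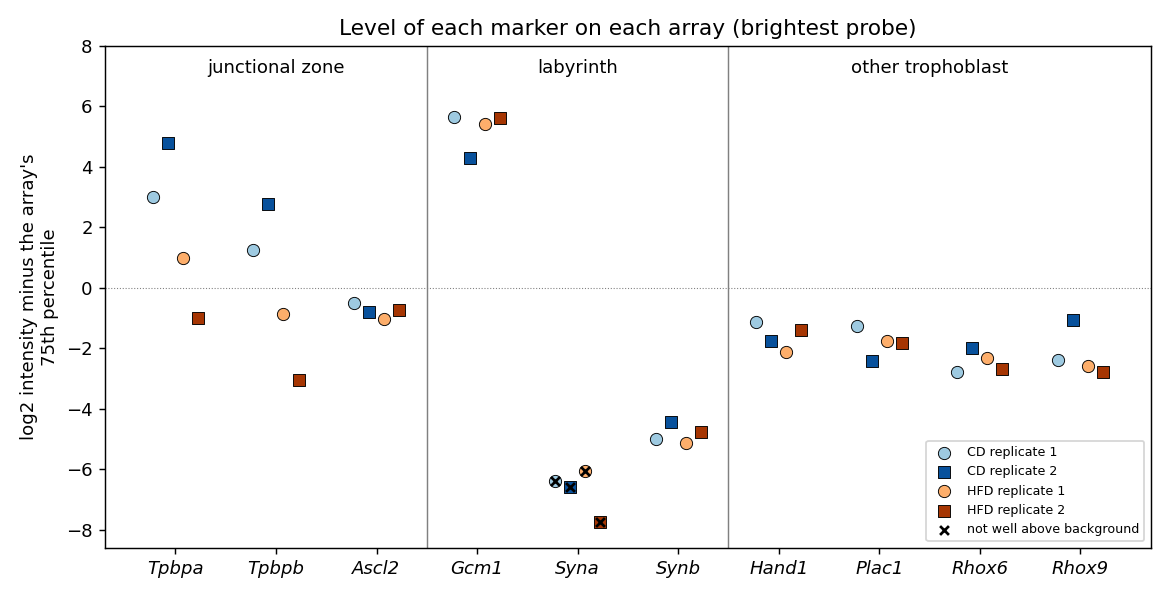
Level of each of the 10 markers on each of the 4 arrays, as log2 intensity with that array's 75th percentile subtracted, for the brightest probe of each gene. Crosses mark values not well above background, and heights are to be compared between arrays for 1 gene and not between genes. Tpbpa and Tpbpb separate all 4 arrays in the order CD replicate 2, CD replicate 1, HFD replicate 1, HFD replicate 2, while the other 8 genes span 0.54 to 1.71.

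The arrays within a diet also differed for this pair of genes. Tpbpa was higher by 1.80 on CD replicate 2 than on CD replicate 1, and lower by 2.01 on HFD replicate 2 than on HFD replicate 1. The corresponding differences for Tpbpb were 1.54 and -2.19. Over all 41614 probes tested the SD of these within-group differences was 0.60 for CD and 0.37 for HFD. The replicates of each diet thus stood farther apart for Tpbpa and Tpbpb than for most probes. Within the replicate 1 arrays, with Y-linked transcripts, the HFD array was lower by 2.01 for Tpbpa and 2.11 for Tpbpb. Within the replicate 2 arrays, with Xist, the differences were -5.81 and -5.83. The direction was the same in both pairs, and the difference was larger in the second. These are single arrays set against each other, with no test.

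When each gene was set against its own mean over the 4 arrays, Tpbpa deviated by 1.06, 2.85, -0.95 and -2.96 on CD replicate 1, CD replicate 2, HFD replicate 1 and HFD replicate 2, and Tpbpb by 1.22, 2.75, -0.89 and -3.08. These profiles differed by 0.06 to 0.16 per array while the genes spanned 5.81 and 5.83 over the 4 arrays. Each gene had 1 spot on each array, with a spot error from the scanner software of 10 to 10.7% of the intensity. Probe sequences were not used here, so how far each probe also binds the other transcript was not tested.

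**Figure D2:**
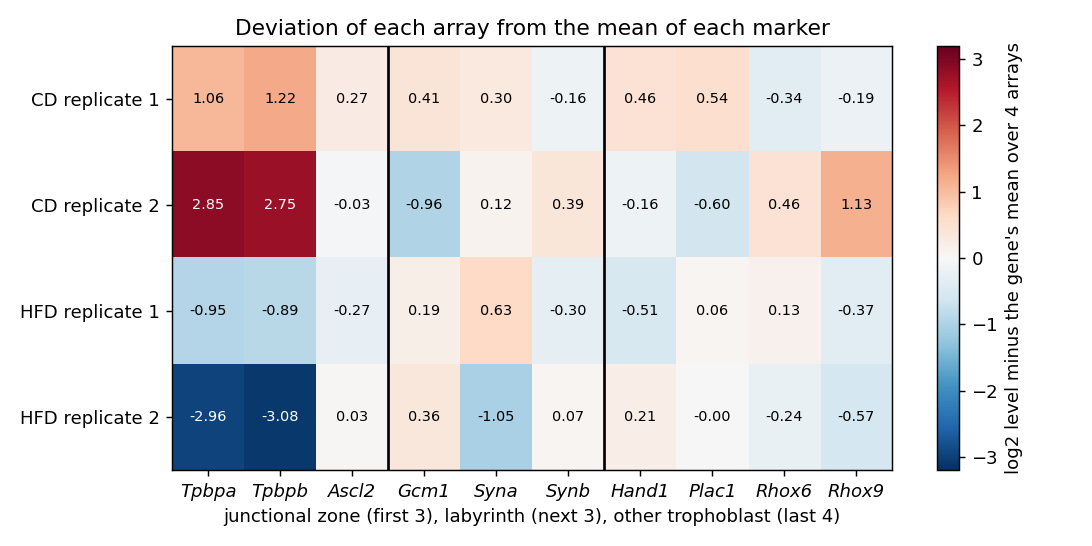
Deviation of each array from the mean of each marker over the 4 arrays, in log2 units, with the value printed in each cell. The Tpbpa and Tpbpb columns run from 2.85 and 2.75 on CD replicate 2 to -2.96 and -3.08 on HFD replicate 2, and every other value lies between -1.05 and 1.13.

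Ascl2 did not share this pattern. Its intensity was 757 and 403 for CD and 472 and 544 for HFD, and its level was -0.65 ± 0.22 (SD) for CD and -0.89 ± 0.21 (SD) for HFD. The groups overlapped, and the difference was -0.24 ± 0.21 (SE). The distance between the deviation profiles of Ascl2 and Tpbpa was 4.29, against 0.23 for Tpbpb and Tpbpa, where the distance is the Euclidean one over the 4 arrays. The junctional zone members thus held 2 genes with a wide difference and 1 without, and their median of -3.91 is the value of Tpbpa. All 3 were well above background on every array.

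The 2 labyrinth markers that were measured above background, Gcm1 and Synb, showed no such separation. Which cells gave these 2 signals in liver RNA was not tested, so they are not read as a measure of labyrinth. Gcm1, the transcription factor of the branch point cells and syncytiotrophoblast of the labyrinth, had 3 probes. The brightest gave intensities of 53809 and 13682 for CD and 41934 and 44025 for HFD. CD replicate 2 stood below the other 3 arrays, which lay close together. The difference was 0.55 ± 0.49 (SE), and the other probes gave 0.48 ± 0.48 and 0.40 ± 0.23, so the 3 probes had the same sign. The dimmest of the 3, with intensities of 1718, 808, 1773 and 1600, was the one on which both HFD arrays lay above both CD arrays. Within the replicate 1 arrays the brightest probe differed by -0.22 and within the replicate 2 arrays by 1.32.

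Synb encodes syncytin-B, a membrane protein of retroviral origin that fuses the inner syncytial layer. It was dim but well above background on all arrays, with intensities of 33.7 and 32.2 for CD and 27.6 and 33.3 for HFD. The groups overlapped and the difference was -0.23 ± 0.27 (SE). Its mean CD level of -4.72 lay close to the lowest level well above background on the HFD arrays, -5.86 and -5.7. A fall as wide as that of Tpbpa would have been a bound and not a measured fold. Syna encodes syncytin-A, the fusion protein of the other syncytial layer, and was not well above background on any array, with intensities of 12.8, 7.36, 14.5 and 4.22. No fold is given for it, and it was the 1 member left out of the fit. The median difference of the labyrinth members was -0.23, or 0.16 without Syna. The junctional zone median was lower than the labyrinth median by 3.68, a gap set by Tpbpa and Tpbpb, since Ascl2 at -0.24 lay within the range of the labyrinth members.

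The differences of the 4 other trophoblast members ran from -0.94 to 0.06. Hand1, a basic helix-loop-helix factor of trophoblast giant cells, had intensities of 487 and 208 for CD and 224 and 347 for HFD. The groups overlapped, and the difference was -0.30 ± 0.36 (SE). Plac1, an X-linked gene expressed through the trophoblast lineage, had 2 probes with differences of 0.06 ± 0.41 (SE) and -0.03 ± 0.26 (SE). On its brighter probe the intensities were 443 and 132 for CD and 288 and 258 for HFD, so both HFD arrays lay between the CD arrays. Rhox6 and Rhox9 are neighboring X-linked homeobox genes expressed in trophoblast and in germ cells. Rhox6 gave 156 and 179 for CD and 196 and 142 for HFD, with overlapping groups and a difference of -0.12 ± 0.33 (SE).

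Rhox9 had intensities of 203 and 333 for CD and 162 and 132 for HFD. Both HFD arrays lay below both CD arrays, and the difference was -0.94 ± 0.48 (SE). CD replicate 2 alone stood apart, at a level of -1.08, while the other 3 arrays lay between -2.40 and -2.79. Within the replicate 1 arrays the difference was -0.18 and within the replicate 2 arrays -1.71. Plac1, Rhox6 and Rhox9 are X-linked, and the part of the Xist difference between the arrays in their values was not tested. The median difference over these 4 genes was -0.21. Among the other members the replicate 1 and replicate 2 pairs gave opposite signs for Ascl2 (-0.54 and 0.07), Hand1 (-0.97 and 0.37), Plac1 (-0.47 and 0.59) and Rhox6 (0.47 and -0.70), and the same sign for Synb (-0.14 and -0.32). By layer, the median difference was -2.01 and -5.81 for the junctional zone, -0.14 and -0.32 for the labyrinth (-0.18 and 0.50 without Syna, so the second sign turned), and -0.32 and -0.16 for the other trophoblast members.

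Across all genes, limma called no gene at an adjusted p under 0.05, or 0%, and the smallest adjusted p was 1.00. An unadjusted limma p under 0.05 was found for 527 of 18340 genes, a smaller share than the threshold itself. The methods' t-test also gave 0 probes after Benjamini-Hochberg adjustment. With an unadjusted p under 0.05 and at least a 2-fold difference, 0.583% of 18340 genes were called lower and 0.284% higher in HFD. Of the 9 members tested, 2 were called lower by this rule, Tpbpa and Tpbpb, and 0 higher. Both HFD arrays lay below both CD arrays for 10.2% of genes and above them for 22.9%, and of the 9 members 3 lay below, Tpbpa, Tpbpb and Rhox9, and 0 above by their brightest probes. Because the members were picked on this contrast, nothing is read from these counts.

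The genes whose arrays deviated most like those of Tpbpa, of 16807 candidates (well above background in the CD group), were Psg16 at a distance of 0.19, Ctsm at 0.28, Ceacam13 at 0.41, Prl2b1 at 0.43 and Ceacam5 at 0.48. They were followed by Psg26, Psg21, Prl3b1, Psg-ps1 and Psg27 at 0.54 to 0.62. By family, 5 of the 10 are pregnancy-specific glycoprotein genes, 2 are Ceacam genes, 2 are prolactin family genes and 1 is a placental cathepsin, and their differences ran from -4.41 to -3.65. Candidates had to be well above background on both CD arrays and were ranked by likeness to Tpbpa. Their low HFD values thus follow from the search and are no further result. Ctsm was not well above background on HFD replicate 2. Among the members, Tpbpb at 0.23 would stand second in this order, and the next, Rhox9, lay at 3.25. Genes near Rhox9 itself were Sox14 at 0.09, Syt10 at 0.18, Sct at 0.21 and Mlc1 at 0.23, none of them a trophoblast marker of the lists used here. The neighbors of Gcm1, looked up after its values were seen, were Gab3 at 0.11, Rhox8 at 0.12, Wnt4 at 0.13, Olfr1349 at 0.16 and Dcc at 0.17.

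Further genes of each compartment were read from the same fit. Over all 7 lists of such genes, 57 of 68 were tested, of which 10 were called lower and 1 higher, beside 0.583% and 0.284% of all genes. The lists were written with earlier results of these same data known. The counts, here and for single lists, are therefore a description and no independent result. With the methods' t-test none of the 57 was called, and the count was 5 where probes with a linear CV over 50% under both conditions were left out. Of 12 further junctional zone genes tested, 5 were called lower and 1 higher, with a median difference of -1.05. Prl8a8, a prolactin family hormone of spongiotrophoblast, had intensities of 884 and 2226 for CD and 117 and 28.8 for HFD, and a difference of -4.70 ± 0.93 (SE, adjusted p = 1.00 by limma). The other 4 called lower were the hormone gene Prl3a1 and the pregnancy-specific glycoprotein genes Psg17, Psg18 and Psg21, with differences of -2.51, -3.05, -4.68 and -4.0. Prl3a1 was not well above background on either HFD array, which bounds it at least 2.99-fold lower. Psg17 and Psg18 were not well above background on HFD replicate 2, so their differences rest in part on a value below background. Prl6a1, another prolactin family gene, was called higher, at 1.39 ± 0.51 (SE). Its intensity was 66.9 and 35.3 for CD and 87.3 and 216 for HFD, and it was not called after normexp background correction, in the deposited table, with the signal floor, by the methods' t-test or without CD replicate 2. Pcdh12 and Aldh1a3, listed here for glycogen cells, differed by -0.08 and 0.09, and Flt1, which junctional zone cells share with endothelium, by 0.21. Which cells gave these 3 signals in liver RNA was not tested.

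The placental cathepsins are cysteine proteases made by trophoblast, in part from the chromosome 13 cluster beside Tpbpa. Cts3 differed by -4.60 ± 1.1 (SE) and Ctsm by -3.65 ± 0.89 (SE), the only 2 of 8 that passed the filters. Both were called lower, as were 0.583% of all genes. Ctsm was not well above background on HFD replicate 2, so its value is not an exact fold. Ctsq and Ctsr were well above background in the CD group only, which bounds them at least 2.80-fold and at least 2.29-fold lower. Ctsj was well above background on CD replicate 2 alone, and Cts6, Cts7 and Cts8 on no array. The genes on either side of Tpbpb, looked up after the values were seen, did not share its profile. Ctla2a, which lies between Tpbpb and Tpbpa, had intensities of 10879 and 7106 for CD and 11779 and 11585 for HFD and differed by 0.30 ± 0.16 (SE), and Ctla2b differed by 0.27 ± 0.18 (SE).

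**Figure D3:**
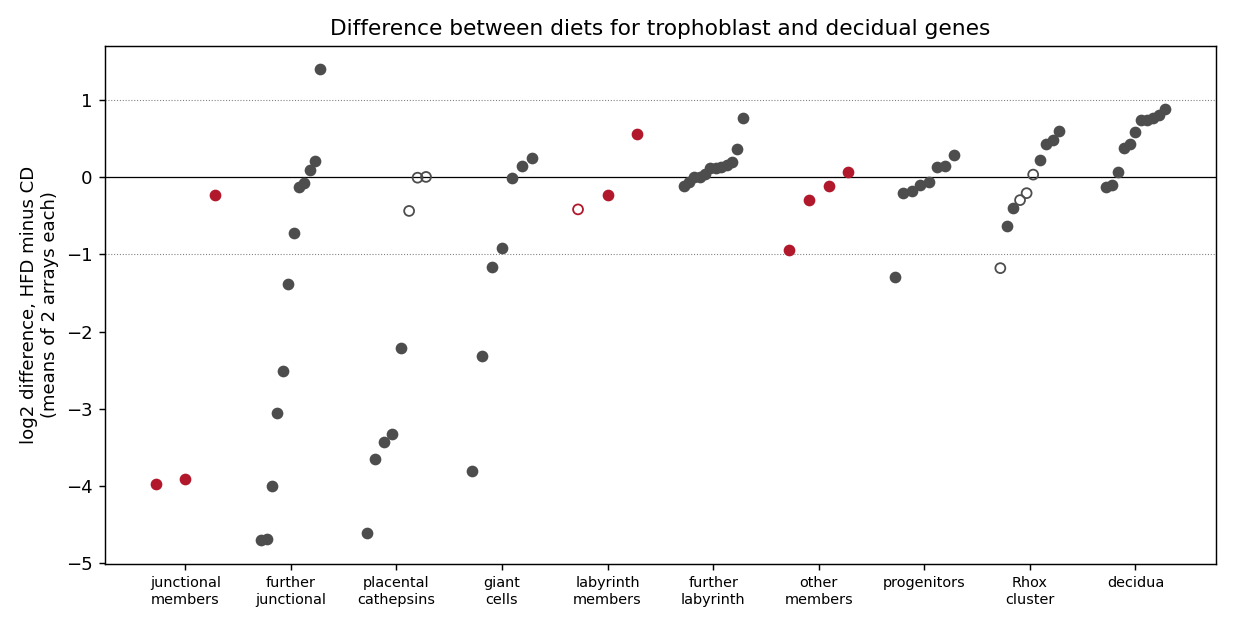
HFD minus CD difference on the log2 scale for each gene of each list, by its brightest probe, with the 10 markers in red and further genes in gray. Open circles stand for genes below background on all arrays, a value from a group below background is not a measured fold, and dotted lines mark a 2-fold difference. The lowest values stand among the junctional zone, cathepsin and giant cell genes, and the further labyrinth genes lie between -0.12 and 0.76.

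Of 12 further labyrinth genes, all well above background on every array, none was called in either direction, and limma gave 0 of them an unadjusted p under 0.05. Their differences ran from -0.12 to 0.76 with a median of 0.12. The 3 with the brightest probes were the lactate transporters Slc16a1 and Slc16a3, at 0.36 and 0.12, and Ly6e, the receptor of syncytin-A, at 0.00. Many of these genes are also expressed outside the placenta, and the adipogenic and hepatic factors Cebpa and Pparg are on this list, so their levels in liver RNA are not specific to labyrinth.

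Of 6 giant cell genes tested, Prl3b1, a placental lactogen, differed by -3.80 ± 0.89 (SE) and Pappa2, a protease of IGF-binding proteins, by -1.16 ± 0.26 (SE). Both were called lower, as were 0.583% of all genes. Gata2, Gata3 and Tfap2a, transcription factors that giant cells share with other tissues, differed by -0.01, 0.14 and 0.24. Prl3d1, a further placental lactogen, differed by -0.92 with both HFD arrays below both CD arrays, as for 10.2% of all genes, and was not called. Prl4a1, not tested, was well above background in the CD group only, which bounds it at least 2.02-fold lower. Of 8 trophoblast progenitor genes, Tfap2c was called lower at -1.30 ± 0.27 (SE), beside 0.583% of all genes. Its intensities were 165 and 105 for CD and 75 and 44.6 for HFD. The other 7 differed by -0.21 to 0.29, among them Cdx2 by 0.14, Ets2 by -0.06 and Bmp4 by -0.21. Of 6 further genes of the Rhox cluster tested, none was called, with 0 at an unadjusted limma p under 0.05 and differences from -0.63 to 0.60. Rhox8 differed by 0.48, with its low value on CD replicate 2 as for Gcm1, and Rhox5 and Rhox7a by 0.60 and 0.42.

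Genes meant to mark the decidua, the maternal tissue next to the junctional zone, did not follow Tpbpa. They are not specific to it, as Wnt4 is also on the gonad and adrenal list. None of 11 was called, with 0 at an unadjusted limma p under 0.05, and their median difference was 0.58, with Wnt4 at 0.43, Hoxa10 at 0.74 and Des at -0.10. The granzyme genes Gzmc, Gzmd, Gzme, Gzmf and Gzmg of uterine natural killer cells deviated by medians of 2.33, -3.04, 1.69 and -0.88 on CD replicate 1, CD replicate 2, HFD replicate 1 and HFD replicate 2. CD replicate 2, the highest array for Tpbpa, was therefore the lowest for the granzymes. Other genes of the list did not share this pattern. In the same order of arrays, Prl8a2 deviated by -0.48, 0.43, 0.64 and -0.58, and Prf1 by 0.04, 0.09, 0.0 and -0.14. Gzme had intensities of 2933 and 41.6 for CD and 1736 and 277 for HFD. Within each diet the granzymes were higher on the replicate 1 array. There Xist, at 3.43 for CD and 8.48 for HFD, was not well above background. Whether the granzyme signal came from maternal cells was not tested. Summed over the whole junctional zone member list, on the linear scale relative to the 75th percentile, the level was 11.1 and 35.3 for CD and 3.04 and 1.22 for HFD, and for the 11 decidual genes it was 12.4 and 2.93 for CD and 8.48 and 6.14 for HFD. Carry-over of placental or decidual tissue into the liver samples was not tested.

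**Figure D4:**
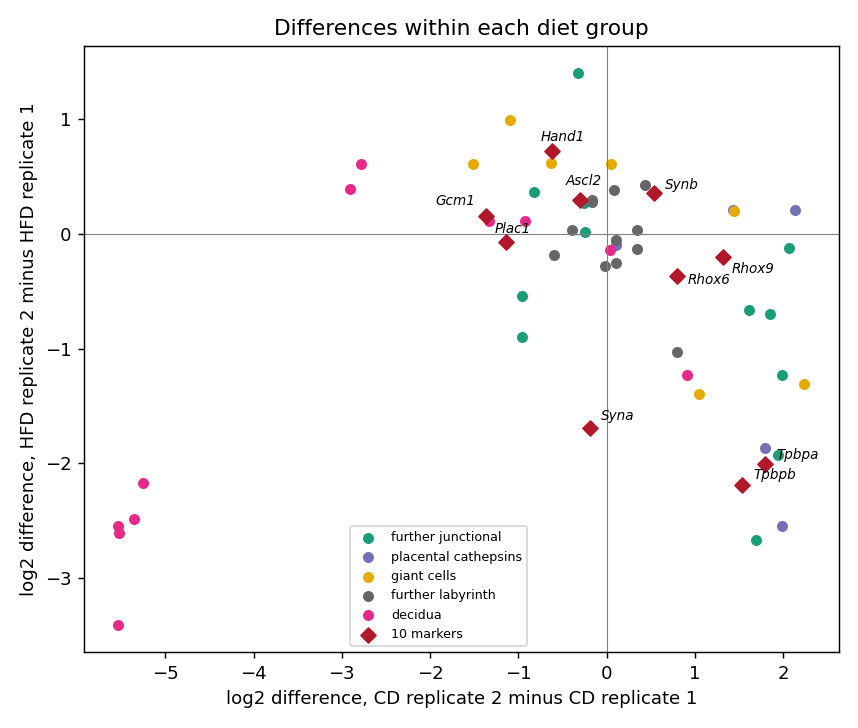
Difference between the arrays of each diet, replicate 2 minus replicate 1 on the log2 scale, for CD (horizontal) and HFD (vertical), for the 10 markers and the further genes well above background on at least 1 array. Syna is drawn although no array measured it above background. Tpbpa and Tpbpb lie at the lower right with prolactin family, Psg and cathepsin genes, the granzymes lie at the lower left, and the further labyrinth genes lie near 0 except Esx1 (0.80 and -1.03).

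Markers of other tissues were measured on the same arrays. Of 8 germ cell genes 5 were tested and 1, Hormad1, was called higher, beside 0.284% of all genes. It was not well above background in the CD group, which bounds it at least 1.34-fold higher. Mael, not tested, is bounded in the same way at least 2.04-fold higher, and Dppa3, also not tested, was well above background on the replicate 1 array of each diet alone. Of 7 genes of gonad and adrenal, Cyp11a1 and Nr5a1 were called higher, at 1.87 and 1.20. All 6 neuronal genes differed by less than 0, from -0.99 to -0.29, with HFD entirely below CD for 5 of them, beside 10.2% of all genes, and none called, as the 3 with an unadjusted limma p under 0.05, Tubb3, Dcx and Map2, differed by less than 2-fold. None of 5 yolk sac genes was called, with 0 at an unadjusted limma p under 0.05. Summed levels over the neuronal list were 21.5 and 15.4 for CD and 11.1 and 14.9 for HFD, those over the gonad and adrenal list 35.4 and 51.4 for CD and 38.5 and 46.7 for HFD, those over the yolk sac list 5.54 and 7.28 for CD and 8.06 and 6.16 for HFD, and those over the germ cell list 0.568 and 0.468 for CD and 0.871 and 0.519 for HFD. These sums are carried by the brightest probes of a list. By the median deviation of its genes, the gonad and adrenal list stood at -0.31 and -0.88 for CD and 0.16 and 0.53 for HFD, so CD replicate 2, highest by the sum, was lowest by the median. The part of these tissues in the values of the trophoblast genes was not tested.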

How the data were processed

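Cy3-labeled cRNA from fetal liver was hybridized by the authors to 4 single-color Agilent mouse arrays, which were read with Feature Extraction 11.0.1.1 (per the submitters' processing notes). For each spot the authors deposited a background-subtracted, detrended intensity that was not scaled between arrays, the median intensities of spot and local background, and flags coded as scores of 0 or 1. A normalized signal per probe, for 41471 probes, was deposited as well. Each of its columns equaled the intensity divided by 1 constant (1068 and 702 for CD, 967 and 906 for HFD), within 0.1% for 100% of 41171 single-spot probes, so scale, centring and direction of the table were settled. Its column medians were 0.305, 0.276, 0.286 and 0.293. The files hold no columns of comparisons, and all 4 arrays shared 1 slide and 1 scan, so neither could serve as a block.

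The labels gave each array its group and replicate number. The log2 of the intensity was taken, spots of a probe were averaged without those carrying an outlier flag (39 to 58 per array), and the 75th percentile of each array was subtracted. Following the study's methods, probes below the 20th percentile of at least 1 array (14980 of 56596) or with a CV of the log2 value over 50% under both conditions (2) were left out, leaving 41614. A linear CV would have left out 284, among them the probes of Tpbpa and Tpbpb. Probes were named through their transcripts and RefSeq genes (GRCm38.p6), which gave 32994 of 56605 probes 1 of 22911 symbols. The brightest probe stood for a gene.

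The test of HFD against CD was limma's (version 3.58.1, R 4.3.3), by lmFit and eBayes without covariates, with Benjamini-Hochberg adjustment over all probes. The 10 members and the lists, written from general knowledge, were chosen with earlier results of these data known. Genes named were all members with every probe, in each list the called genes and the 3 brightest (the latter not printed for lists outside trophoblast and decidua), the 5 sex-linked transcripts, the 10 genes nearest Tpbpa and the 5 nearest Rhox9, with some genes of the lists and of this rule not reported here. Other genes of the lists were named as examples of their group after their values were seen. Prl2c2, Rhox2a and Rhox4b had no matched probe. The deviations of arrays with the same replicate number correlated at -0.107 over 41614 probes, so the main fit did not pair the arrays by number. The numbers did separate the arrays by Xist and the Y-linked transcripts, so a block on them is also a block on that difference. A bound is the mean of the brighter group against, per array of the dimmer group, the higher of the probe's own value and the lowest level well above background on that array (-6.02 to -5.57). With 4 arrays, their number limits the precision. The steps were tested on simulated data. Tables and plots were made in Python 3.11.15 (pandas 2.3.3, numpy 2.4.6, matplotlib 3.10.9).

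The alternatives were quantile normalization, normexp on the median intensities (offset 50), use of the deposited table, a filter on well above background, a signal floor of 5, a linear or no CV filter, the methods' t-test, the replicate number as a block, the mean over probes, dim arrays set at their bound, and leaving out each array. Crossed pairing and the medians without dim genes were added after the data were seen.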

Additional observations from a re-analysis of the deposited data

How the results depend on the processing

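Tpbpa and Tpbpb were lower in HFD under every alternative run for them, from -4.92 to -2.90 and from -5.06 to -2.87 when each array was left out. Both HFD arrays lay below both CD arrays for these genes, so leaving out an array could not change the sign. The members were also picked on this contrast, so only the size of the difference is read here. Of 89 recomputed member differences 9 had another sign than reported, none of them for Tpbpa, Tpbpb, Ascl2 or Rhox9. The junctional zone median stayed between -4.92 and -2.87 and its gap to the labyrinth median between -4.86 and -2.88. The labyrinth median of -0.23 became -0.04 after normexp, 0.15 in the deposited table (which lacks Syna), 0.01 with dim arrays at their bound and 0.16 without genes below background on all arrays, and ran from -0.33 to 0.42 when an array was left out. The other trophoblast median ran from -0.39 to -0.14 when an array was left out.

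The number of probes called at an unadjusted p under 0.05 and 2-fold was 337, of which 219 were lower. It was 60 after normexp and 97 by the methods' t-test, and 696 to 1235 when an array was left out, where the lone array of a group was assumed to vary like the others. No probe passed the adjusted threshold except 26 without HFD replicate 1 and 19 with the crossed pairing. The count of further placental genes called, 11, fell to 6 with a floor of 5, to 5 with the linear CV and to 0 by the t-test, and was 7 to 17 when an array was left out, 7 without CD replicate 2 and 17 without CD replicate 1. The causes were not tested.

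With the replicate number as a block, 461 probes and 12 of the further placental genes were called. Of these, 277 probes and 11 genes were lower in HFD. In this balanced design the block leaves every HFD minus CD difference as it was. Only the SE and p could change, and no direction. The crossed pairing, chosen after seeing the data, called 456 probes and 12 genes. It set an array with Xist beside an array with Y-linked transcripts in each pair.

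Syna was not well above background and Synb only dimly so, and small differences in these genes were not detectable at that signal. The filter at the 20th percentile on any array leaves out genes that fell to background in 1 diet, such as Ctsq and Ctsr, for which only bounds are given.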
